A study of Equus caballus with 14 samples.

Results

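The sarcomere is the repeated contractile unit of striated muscle, and its transcripts were read in the gluteus medius muscle of horses with polysaccharide storage myopathy (PSSM), a glycogen storage disease. The probes were chosen by gene symbol, and they cover the myosin heavy and light chains, troponins, tropomyosins, muscle actins, actinins, myosin binding proteins, myomesins, tropomodulins, leiomodins, titin, nebulin, telethonin, desmin, myozenins and the PDZ-LIM proteins of the Z-disc. This rule found 85 of the 24493 probes, for 68 gene symbols, of which 5 are equine probes (of 384) and 80 are mouse probes (of 24109). The symbol rule also took in Tnni3k, which encodes a kinase and not a troponin, 13 probes of non-muscle forms and 4 of smooth muscle forms.

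The PSSM group holds 7 horses, numbered 5, 12, 32, 38, 42, 44 and 54. Each was read on 2 spotted microarrays of opposite dye (Cy3 or Cy5), 14 in all, and the competing channel always held 1 pool of RNA from the muscles of 6 sound control horses. All were adult Norman Cob horses, none with a treatment in the labels; per the study's methods, the PSSM horses had amylase-resistant polysaccharide in their fibers and carried 1 or 2 copies of a mutation of glycogen synthase 1, and the control horses were wild type. The study's table of horses does not list horse 5 and names another PSSM horse in its place, so genotype and histology are not tied to single horses here. The deposited values are natural log ratios of the dyes, which were turned to PSSM over control, put on the log2 scale and averaged per horse; n is the number of PSSM horses and each ± is their SD. The pool counts as 1 control sample, so the spread between control horses is part of no error, and a 2-color ratio holds no level: each value is relative to the pool.

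The mouse probes read horse RNA across species. Near-identical members of a family can therefore share signal on 1 probe, and their separate ratios are uncertain. Between 7351 and 16696 mouse probes had a value on a microarray. Over the members, the 2 microarrays of a horse correlated with r between 0.26 (horse 32) and 0.88 (horse 44), as a description across probes that share samples and labelling; over all mouse probes the range was -0.12 to 0.38. In 52 of the 758 values of the mouse members (6.86%), the pool gave the lowest signal that the processing allows. This held for 0 of the 70 values of the equine members. Such a ratio above 1 is only a lower bound. Where it is exactly 1, the PSSM muscle gave that same signal and the ratio holds no direction. Both kinds were kept in the main means and tests. Over all mouse probes the pool gave this lowest signal in 9.16% of values. The share was highest on the Cy5 microarray of horse 54, at 20.6%, where the mouse probes had a median log2 ratio of -0.25.

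In a sarcomere, thick filaments of myosin pull on thin filaments of actin. Tropomyosin and the 3 troponins (C, I and T) switch the thin filament on when calcium rises, tropomodulin and leiomodin act at its pointed end, nebulin runs along it, titin reaches from the Z-disc to the middle of the unit, and actinin with its partners anchors it in the Z-disc. Most of these proteins come in forms made by separate genes for fast fibers, slow fibers, heart, developing muscle, smooth muscle and other cells. The gluteus medius is a propulsive muscle that holds both fast and slow fibers. Cardiac alpha-actin is the main sarcomeric actin of the heart and is made in developing skeletal muscle, and in adult skeletal muscle it is a minor form.

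Of the 85 probes, 61 had a value from at least 5 horses and were tested (5 equine, 56 mouse, 52 gene symbols). The other 24 were not tested, 5 of them without any value (the probes of Mybphl, Myom3, Myh11, Tmod3 and 1 of the 7 for Ttn). Untested probes include the fast myosins Myh1 (1 horse) and Myh4 (4 horses) and the embryonic myosin Myh3 (4 horses), so the fast heavy chains are not described here. Each tested probe was compared with a ratio of 1 by limma (the mean log2 ratio of the horses against 0), with Benjamini-Hochberg adjustment within the equine and within the mouse probes, and called at an adjusted p under 0.05.

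Among the mouse probes, 2 of the 56 tested members were called higher in PSSM muscle, Actc1 and 1 probe of Neb, and 3 were called lower, Tmod1, Ldb3 and Myoz3. Over all 13067 tested mouse probes 0.452% were called higher and 1.36% lower. Among the 5 equine members, 0 were called higher (1 at an unadjusted p under 0.05) and 1 lower, TNNI3, beside 4.43% and 19.9% of all 361 tested equine probes. The median log2 ratio of the mouse members was -0.07, beside -0.01 over all tested mouse probes. Of the 47 mouse members with a value from all 7 horses, 1 lay above the pool in every horse and 7 lay below it in every horse, beside 4.24% and 5.85% of all such mouse probes. Of the 5 equine members, ACTN2 lay above the pool in every horse and TNNI3 below it, beside 4.9% and 17.6% of all equine probes with 7 horses.

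**Figure D1:**
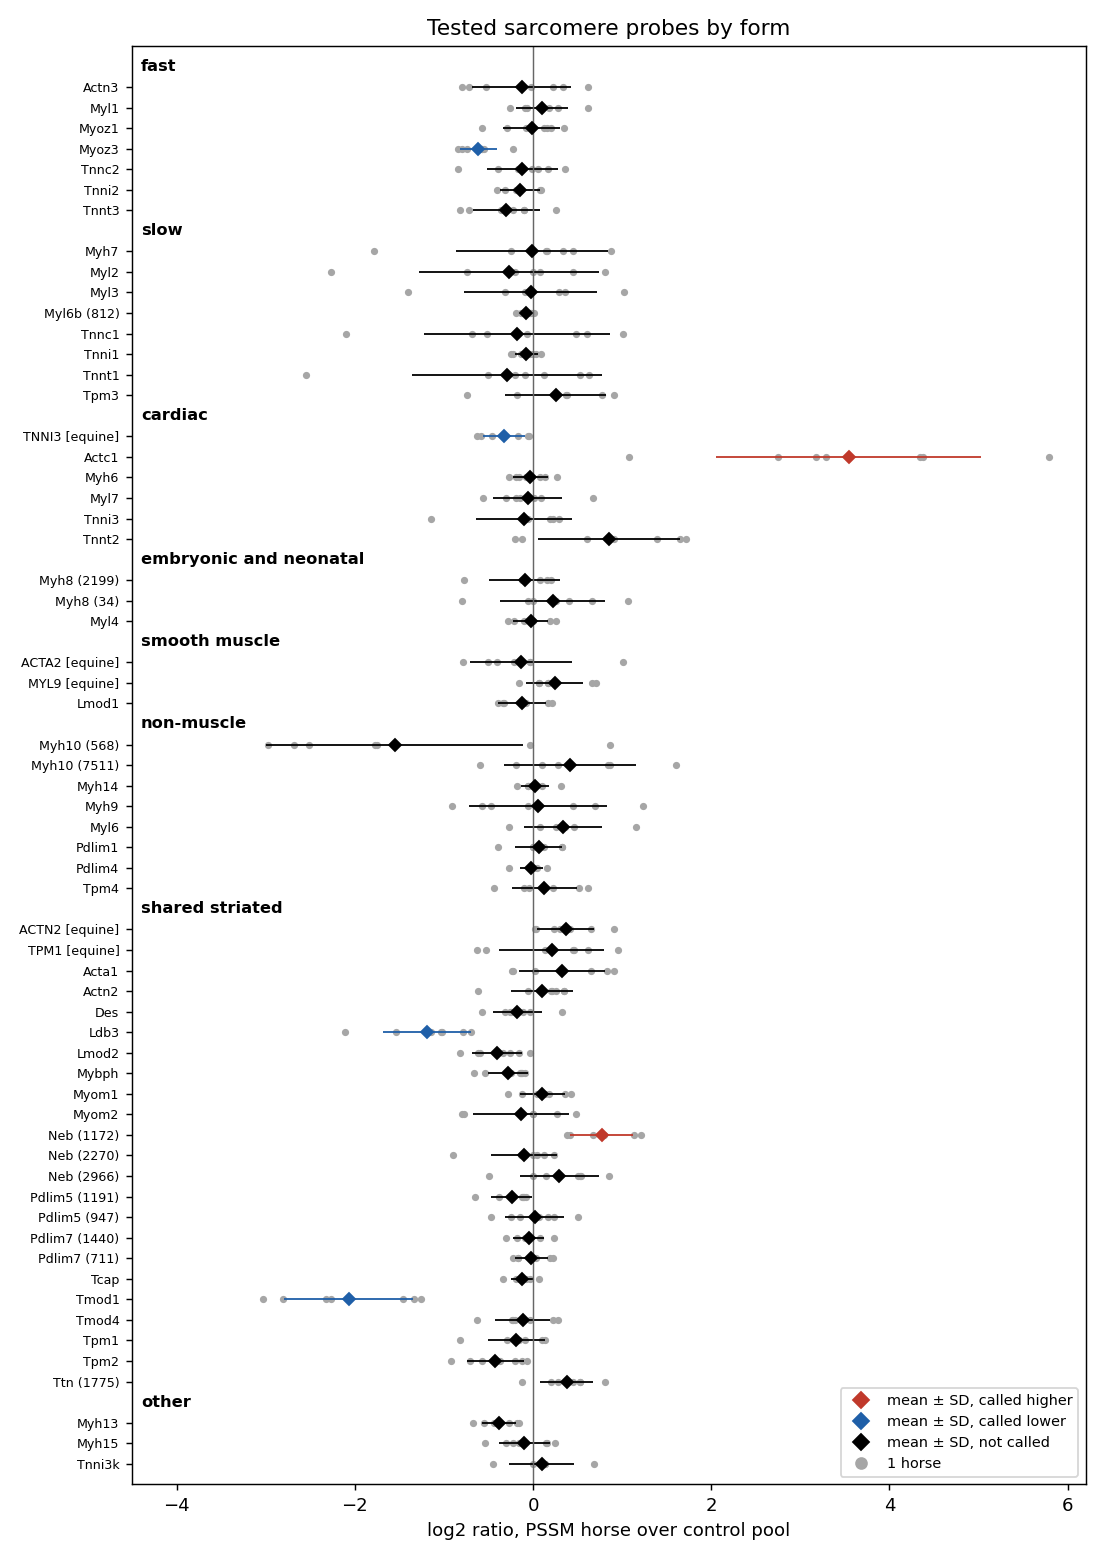
Log2 ratio of PSSM muscle over the control pool (x axis) for the 61 tested sarcomere probes, grouped by form (y axis; the start of the probe in its transcript is in brackets where a gene has several). Grey points are single horses, and diamonds with bars are means ± SD, red where called higher, blue where called lower and black where not called. Actc1 stands far to the right at 3.54, Tmod1 far to the left at -2.07, and 6 of the slow-fiber genes have a point well apart on the left, horse 38.

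Cardiac alpha-actin had the highest mean ratio of all 13067 tested mouse probes. The Actc1 probe starts at base 1288 of its transcript. Its log2 ratio was 1.08 in the lowest horse (54), 3.29 in the median horse and 5.79 in the highest (44), that is 2.11, 9.76 and 55.2 times the pool. All 7 PSSM horses and all 14 microarrays lay above the pool. The mean was 3.54 ± 1.49 (SD, n = 7), a ratio of 11.7 (limma adjusted p = 0.00762; exact sign-flip test over horses, two-sided p = 0.0156, the smallest that 7 horses allow). The size depended little on the dye, with a mean of 3.33 when the PSSM muscle carried Cy3 and of 3.76 when it carried Cy5. On 2 of the 14 microarrays, 1 each of horses 38 and 54, the pool gave only this lowest signal, and the ratio there is a lower bound. With the methods' t-test in place of limma the adjusted p was 0.0707, and over all other settings, each horse left out included, the call held with means between 3.17 and 3.95.

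The other actins were not called. Acta1, the actin of adult skeletal muscle, had a mean log2 ratio of 0.33 ± 0.49 (n = 7; limma adjusted p = 0.314), from -0.24 in horse 5 to 0.91 in horse 42. Smooth muscle alpha-actin, read by the equine ACTA2 probe, had a mean of -0.14 ± 0.58 (limma adjusted p = 0.625), with horse 12 at 1.01 and the other 6 horses between -0.79 and -0.03. Smooth muscle gamma-actin Actg2, which the symbol rule leaves out, had a mean of 0.33 ± 0.47 (limma adjusted p = 0.301). Within each horse Actc1 exceeded Acta1, by 0.74 to 4.96 (log2; mean 3.22 ± 1.43). This difference was not tested by itself.

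Of the other forms named for the heart, cardiac troponin T (Tnnt2), which developing skeletal muscle also makes, had the next highest mean. It was 0.85 ± 0.80 (n = 7; limma adjusted p = 0.121), with horses 5, 12 and 44 between 1.39 and 1.72 and horses 38 and 42 just below 0, at -0.13 and -0.20. Its mean was 1.26 with PSSM muscle in Cy3 and 0.36 with it in Cy5. Mean ratios of the atrial forms lay near 0: the alpha heavy chain Myh6 had a mean of -0.03 ± 0.20 and the atrial light chain Myl7 one of -0.06 ± 0.39. Of 5 tested mouse probes in this list, 1 was called, and the median was -0.03. Of the 4 mouse probes for heart markers, only Ryr2, the heart's calcium release channel, was tested, with a mean of 0.24 (6 of 7 horses above 0, not called).

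No probe in the list of embryonic and neonatal forms was called. This list leaves out Actc1 and Tnnt2, given above with the heart forms, and its embryonic myosin Myh3 was not tested. The neonatal heavy chain Myh8 had a mean of 0.22 ± 0.59 (n = 7) on the probe that starts at base 34, and of -0.09 ± 0.40 (n = 5) on the probe at base 2199. The embryonic light chain Myl4 had a mean of -0.03 ± 0.20 (n = 7), so 0 of the 3 tested probes of this list were called. None of the 7 mouse probes nor the 1 equine probe for satellite cells and regenerating fibers was called; the mouse probes had a median of 0.13, and the largest mean, 0.67 ± 0.67, was that of Chrng, the fetal subunit of the acetylcholine receptor (6 of 7 horses above 0).

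Markers of fibroblasts were highest in the horse with the highest Actc1. Over the 5 tested mouse probes for these markers (of 7), the median was 3.00 in horse 44, which had the highest Actc1, and -0.07 in horse 54, which had the lowest. The horses between did not keep this order: horse 32, with the lowest fibroblast median (-0.09), had an Actc1 log2 ratio of 2.75, and horses 5 and 38, with 4.38 and 4.34 in Actc1, had medians of 1.31 and 0.49. The means of these 5 probes over the horses ran from 0.17 to 1.07, and 0 were called. Both equine probes of the list were above the pool on average, and LUM, which encodes the matrix proteoglycan lumican, was called higher (mean 1.65 ± 1.44, limma adjusted p = 0.0269), with 4.30 in horse 44 and 0.01 in horse 54. The part of these cells in the actin ratio was not tested.

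Tropomodulin 1, which caps the pointed end of the thin filament, was the lowest of the tested members. The Tmod1 log2 ratio was -3.03 in the lowest horse (44), -2.27 in the median horse and -1.26 in the highest (32), and 14 of 14 microarrays lay below the pool. The mean was -2.07 ± 0.72 (n = 7), 4.20-fold lower than in the pool (limma adjusted p = 0.00343; exact sign-flip p = 0.0156). The mean was -2.20 when the PSSM muscle carried Cy3 and -1.94 when it carried Cy5, the pool was above its lowest signal throughout, and the call held in every setting tried. Only 27 of the 13067 tested mouse probes had a lower mean.

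None of the related genes below was called, and their means lay nearer the pool than that of Tmod1. Tmod4, the tropomodulin of skeletal fibers, had a mean of -0.12 ± 0.31 (limma adjusted p = 0.584), and Tmod1 minus Tmod4 was between -2.58 and -1.30 (log2) in the 7 horses, a difference that was not tested by itself. Leiomodin 2 (Lmod2), which lengthens thin filaments from the same end, lay below 0 in 7 of 7 horses with a mean of -0.40 ± 0.28, short of the threshold (limma adjusted p = 0.0895). Only 8 microarrays gave a value for it, 1 of them with PSSM muscle in Cy5, where the log2 ratio was 0 with the pool at its lowest signal. On the Cy3 microarray of horse 12 its value, -0.16, equals that of Actn1, and signals of the PSSM muscle at a lowest level were not screened for. Capzb and Capza2, outside the symbol rule, encode subunits of the capping protein of the other end of the thin filament, and they differed in sign. Capzb had a mean of -0.40 ± 0.23 (limma adjusted p = 0.0644) and Capza2 one of 0.43 ± 0.44 (limma adjusted p = 0.167).

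**Figure D2:**
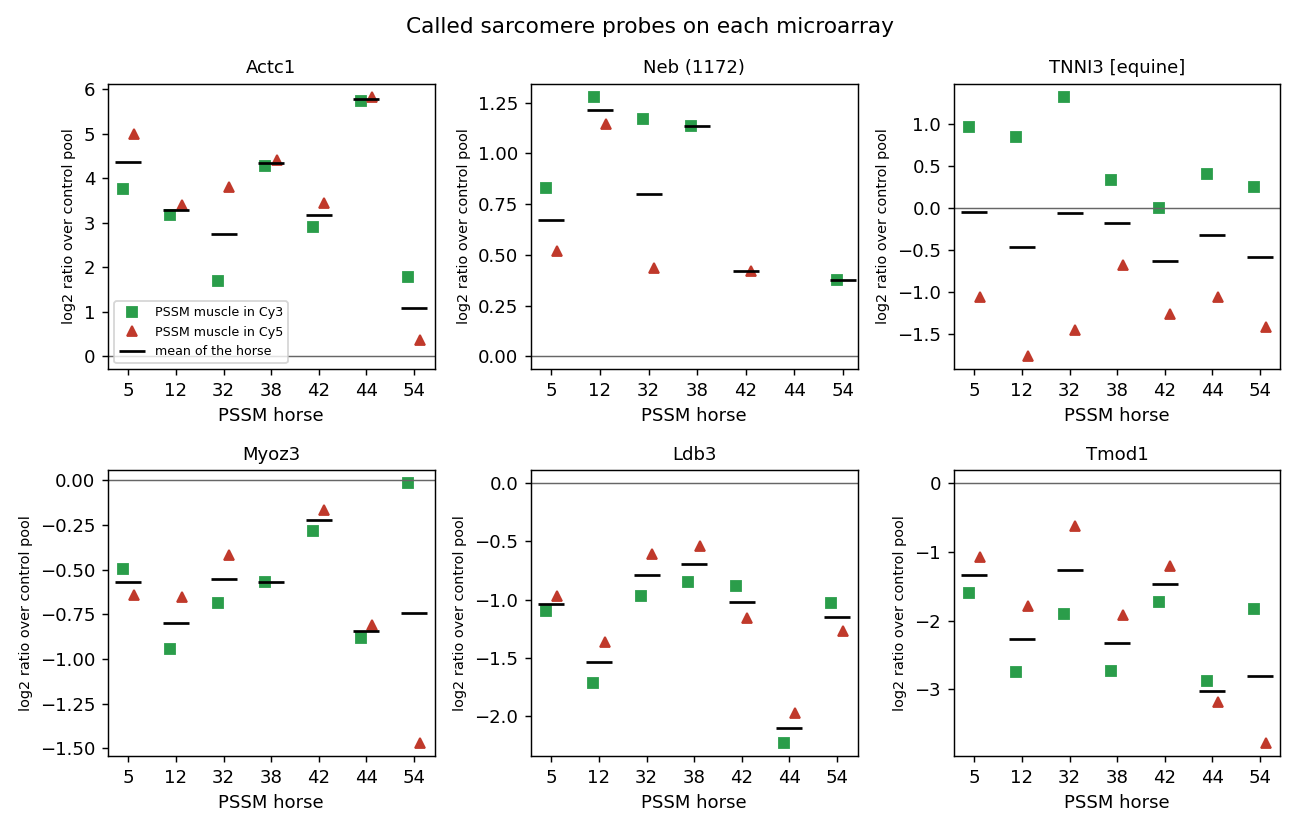
The 6 called probes on each microarray: log2 ratio over the control pool (y axis, scaled for each probe) by PSSM horse (x axis), with green squares for PSSM muscle in Cy3, red triangles for PSSM muscle in Cy5 and black bars for the mean of the horse. Actc1 is above 0 on 14 of 14 microarrays and Tmod1 and Ldb3 below 0 on 14 of 14, while the equine TNNI3 probe lies above 0 in one dye and below 0 in the other in every horse.

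The transcripts of a pair of Z-disc proteins were called lower. Ldb3, which binds alpha-actinin and holds the Z-disc together under load, had a log2 ratio of -2.11 in the lowest horse (44), -1.03 in the median horse and -0.69 in the highest (38). The mean was -1.19 ± 0.49 (n = 7), 2.28-fold lower (limma adjusted p = 0.00915), with 14 of 14 microarrays below the pool and nearly the same mean in either dye, -1.25 in Cy3 and -1.13 in Cy5. With the methods' t-test the adjusted p was 0.0697.

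Myoz3, the myozenin of fast fibers that ties calcineurin to the Z-disc, ranged from -0.85 in horse 44 to -0.22 in horse 42, with a median of -0.57. Its mean was -0.61 ± 0.21 (n = 7), 1.53-fold lower (limma adjusted p = 0.0118), and 13 of 13 microarrays lay below the pool. The call held in every setting in which the probe was tested. The other fast-fiber myozenin, Myoz1, had a mean of -0.02 ± 0.32 (limma adjusted p = 0.949). Horse 44 thus had the lowest Tmod1, Ldb3 and Myoz3 and the highest Actc1, and it is also the horse with the highest fibroblast markers; over all 10440 mouse probes with 7 horses, it was the lowest horse in 19.6% and the highest in 22.8%.

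The other Z-disc genes given here were not called, and Pdlim3 and Myoz2 had too few values for a test. Alpha-actinin 2 was read by 2 probes: the equine ACTN2 probe was above 0 in 7 of 7 horses, with a lowest value of 0.02, a median of 0.31 and a highest of 0.91, and a mean of 0.37 ± 0.32 that missed the threshold (limma adjusted p = 0.0557). The study lists ACTN2 among its significantly modulated genes, at this same ratio of 1.29. The methods' t-test, as run here, gave an adjusted p of 0.0899. The mouse Actn2 probe had a mean of 0.10 ± 0.34 (limma adjusted p = 0.671). Both gave higher values with PSSM muscle in Cy3 (0.64 and 0.72) than in Cy5 (0.10 and -0.52). Telethonin (Tcap) had a mean of -0.12 ± 0.13 and desmin (Des), the intermediate filament around the Z-disc, one of -0.18 ± 0.28. The 2 probes of Pdlim7 had means of -0.05 ± 0.18 and -0.02 ± 0.18, and those of Pdlim5 of -0.24 ± 0.23 (n = 6) and 0.02 ± 0.33.

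Nebulin and titin were read by several probes each, and the nebulin probes did not move alike. The Neb probe at base 1172 of its transcript had a value in 6 horses, from 0.38 in horse 54 to 1.21 in horse 12 with a median of 0.74, and a mean of 0.77 ± 0.35 (limma adjusted p = 0.0336). Only 9 microarrays gave a value, 2 of them with the pool at its lowest signal, and the call was lost when any 1 of horses 5, 12, 32, 38 or 42 was left out (adjusted p between 0.0655 and 0.108), so it rests on few values. The other 2 tested Neb probes had means of 0.30 ± 0.45 (base 2966) and -0.10 ± 0.37 (base 2270), with horse 32 at -0.90 on the last. The only tested probe of the 7 for titin (Ttn, base 1775) was above 0 in 6 of 7 horses, with a mean of 0.38 ± 0.30 (limma adjusted p = 0.109).

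The tropomyosins, myosin binding protein H and the tested myomesins of the M-line passed no threshold. Tpm2, the beta form, lay below the pool in 7 of 7 horses (mean -0.42 ± 0.32, limma adjusted p = 0.101), from -0.93 in horse 38 to -0.06 in horse 32. Tpm1, the alpha form, had a mean of 0.21 ± 0.59 on the equine TPM1 probe and of -0.19 ± 0.32 on the mouse probe, so that the 2 probes differed in sign and neither was called. Myosin binding protein H (Mybph) lay below the pool in 7 of 7 horses (mean -0.28 ± 0.23, limma adjusted p = 0.148), and the myomesins Myom1 and Myom2 had means of 0.10 ± 0.25 and -0.14 ± 0.54. The list of shared striated forms, which also holds the skeletal forms Acta1 and Tmod4, had 21 tested mouse probes. Of these, 1 was called higher and 2 lower, with a median of -0.12.

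Slow-fiber genes were on average at the level of the pool but spread widely between horses, together. Of the 8 tested mouse probes, 0 were called (the same at an unadjusted p under 0.05) and the median log2 ratio was -0.08. The slow heavy chain Myh7 had a log2 ratio of -1.79 in horse 38, 0.16 in the median horse and 0.87 in horse 12. Slow troponin T (Tnnt1) had -2.55 in horse 38, -0.09 in the median horse and 0.63 in horse 12. The slow regulatory light chain Myl2 had -2.27 in horse 38, 0.00 in the median horse and 0.80 in horse 12.

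Slow troponin C (Tnnc1) had -2.10 in horse 38, -0.07 in the median horse and 1.01 in horse 12. The slow essential light chain Myl3 had -1.41, -0.05 and 1.02 in the same order, and slow tropomyosin Tpm3 -0.74, 0.37 and 0.91. In all 6 of these genes horse 38 was the lowest and horse 12 the highest, and horse 5 was above the pool with values between 0.36 and 0.78. Expressed as folds, horse 38 lay from 1.67-fold (Tpm3) to 5.84-fold (Tnnt1) below the pool. The Tnnt1 value of horse 38 comes from its Cy3 microarray only, since the Cy5 microarray gave no value. These 6 genes were singled out after their values were seen.

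The sign of horses 5, 12 and 38 was the same on single microarrays. For these 6 genes, 11 of 11 values of horse 38 were below 0, and 12 of 12 values of horse 12 and 12 of 12 of horse 5 were above 0. The remaining 2 slow probes did not vary in this way: slow troponin I (Tnni1) ranged only from -0.25 to 0.09 and the light chain Myl6b from -0.19 to 0.01. Of all mouse probes with 7 horses, 99.6% spread at least as much as Myl6b. Whether these 2 mouse probes read the horse transcripts was not tested. Over the whole list of 8, horse 38 was the lowest in 6 (75.0%) and horse 12 the highest in 6, while over all 10440 mouse probes with 7 horses these horses were lowest in 10.1% and highest in 10.3%.

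The SD between horses was 0.56 to 1.07 for the 6 genes, beside a median SD of 0.27 over those 10440 probes, of which 2.46% spread as much as Tnnt1 and 9.15% as much as Tpm3. Because every horse was read against the same pool, these differences between horses do not depend on what the pool holds. In whole muscle, fewer slow fibers and less RNA per fiber cannot be told apart. Each horse is 1 biopsy, and the difference between horses was not tested. Without horse 38 the median of the list was 0.11.

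**Figure D3:**
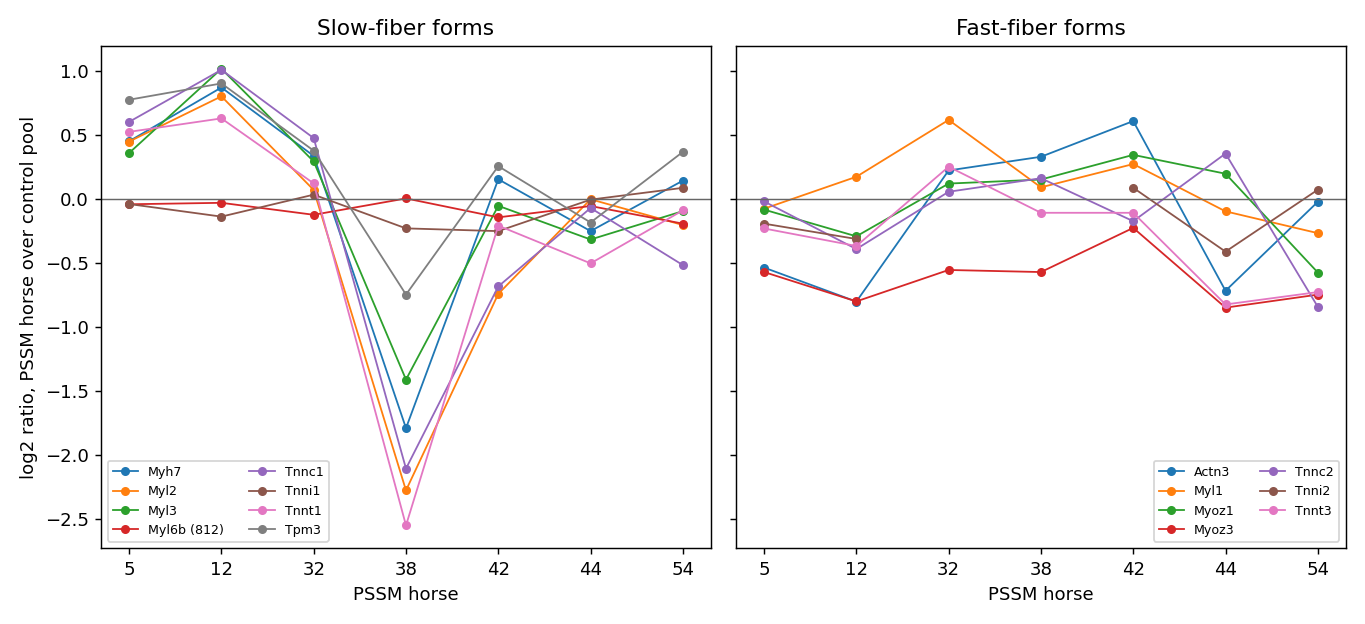
Log2 ratio over the control pool (y axis) by PSSM horse (x axis) for the 8 tested slow-fiber probes (left) and the 7 tested fast-fiber mouse probes (right); lines only join the values of 1 gene, since the horses have no order. On the left, 6 genes fall together to between -2.55 and -0.74 in horse 38 and lie above 0 in horses 5 and 12, while Tnni1 and Myl6b stay flat. On the right no such drop is seen in horse 38.

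Fast-fiber genes showed no such drop in horse 38. Of the 7 tested probes, 1 (Myoz3) was called lower and 0 higher, and the median was -0.13. In horse 38, with the lowest slow-fiber genes, the median of the fast list was 0.12, and in horse 12, with the highest, it was -0.36. The lowest medians of the fast list were -0.57 in horse 54 and -0.41 in horse 44. Fast troponin T (Tnnt3) had a mean of -0.30 ± 0.38 (limma adjusted p = 0.256), with horse 44 lowest at -0.82 and horse 32 highest at 0.25. Alpha-actinin 3 (Actn3), the Z-disc actinin of fast fibers, had a mean of -0.13 ± 0.56, with horses 5, 12 and 44 between -0.80 and -0.53 and horse 42 at 0.61.

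Fast troponin C (Tnnc2), fast troponin I (Tnni2) and the fast light chain Myl1 had means of -0.12 ± 0.40, -0.15 ± 0.22 (n = 5) and 0.10 ± 0.29. Within a horse, slow minus fast troponin C was -2.27 in horse 38 and 1.40 in horse 12. Slow minus fast troponin T was -2.44 and 0.997, and slow minus fast essential light chain -1.50 and 0.84, in the same 2 horses. Averaged over all 7 horses, these 3 differences were -0.06 ± 1.17, 0.01 ± 1.16 and -0.13 ± 0.74, each far smaller than its spread. For troponin I the difference had no value in horse 38, and it ranged from -0.34 to 0.41 over 5 horses.

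Muscle fiber markers outside the sarcomere were mixed in horse 38. The tested mouse probes had a median of 0.31 there, from -0.27 (Ckmt2) to 1.27 (Casq1), and the 3 equine probes one of -0.38, with ATP2A1 at -0.89, RYR1 at -0.38 and CKM at 0.05. Over all horses 0 of the 10 tested mouse probes were called. Of the 3 equine probes 1 was called lower, ATP2A1, the calcium pump of fast fibers (mean -0.68 ± 0.44, limma adjusted p = 0.0112). The mouse probe of this gene, Atp2a1, had a mean of -0.20 ± 0.25 (limma adjusted p = 0.292). Horse 44 was the lowest on the equine probe, at -1.25, and the only horse above 0 on the mouse probe, at 0.18.

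The equine TNNI3 probe, for cardiac troponin I, was the only equine member called, and its sign depended on the dye. Averaged per horse, it lay between -0.63 (horse 42) and -0.05 (horse 5) with a median of -0.32, below the pool in 7 of 7 horses, and its mean was -0.32 ± 0.24 (n = 7; 1.25-fold lower, limma adjusted p = 0.045). Where the PSSM muscle carried Cy3 its mean was 0.59, above the pool in every horse, and where it carried Cy5 the mean was -1.24, below the pool in every horse. The call was lost under the limma model with a dye term (adjusted p = 0.132), with each microarray centred on its median (0.142) and when any of horses 12, 38, 42, 44 or 54 was left out. The mouse Tnni3 probe had a mean of -0.10 ± 0.54 (n = 6), with horse 54 at -1.15 and the others between -0.11 and 0.29. No direction can be given for this gene.

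**Figure D4:**
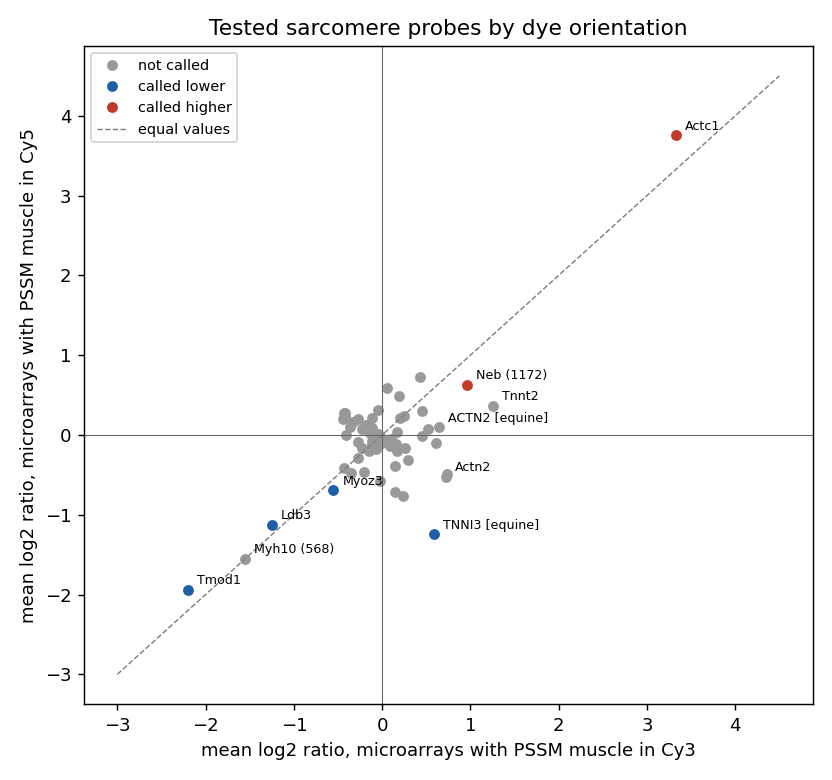
Mean log2 ratio of the 61 tested sarcomere probes with Cy3 on the PSSM muscle (x axis) and with Cy5 on it (y axis), red where called higher, blue where called lower and grey where not called, with a dashed line of equal values. Actc1, Tmod1, Ldb3 and Myoz3 lie near the line, and the equine TNNI3 probe lies far from it, at 0.59 and -1.24.

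Over the 61 tested members, 32 had opposite signs in the 2 orientations, 1 of them called (TNNI3). With PSSM muscle in Cy3 alone, 8 of 55 mouse members were called higher and 11 lower, beside 11.2% and 10.1% of all mouse probes tested in that setting. With it in Cy5 alone 2 of 44 were called higher and 6 lower, beside 5.7% and 10.7% of all mouse probes. The count of calls thus rests on averaging the dyes.

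No non-muscle form was called, and several were highest in horse 44, as were the fibroblast markers. The 8 tested mouse probes had a median of 0.06. Non-muscle light chain Myl6 had a mean of 0.34 ± 0.43, non-muscle myosin heavy chain Myh9 one of 0.05 ± 0.77 and tropomyosin Tpm4 one of 0.13 ± 0.37. In each of the 3, horse 44 was the highest, at 1.15, 1.23 and 0.62. In non-muscle heavy chain Myh14 horse 44 was the lowest, at -0.18. Among the 7 non-muscle probes with 7 horses, horse 44 was highest in 4 (57.1%) and lowest in 1 (14.3%). Over all mouse probes with 7 horses it was highest in 22.8% and lowest in 19.6%. The part of fibroblasts in these ratios was not tested.

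Non-muscle myosin Myh10 was read by 2 probes that disagreed. The probe at base 7511 had a mean of 0.42 ± 0.74, with horse 44 highest at 1.60, and the probe at base 568 a mean of -1.55 ± 1.44 (limma adjusted p = 0.113). On the probe at base 568, 5 horses lay between -2.98 and -1.75, while horse 44 was at -0.04 and horse 5 at 0.86, and both dyes gave the same mean of -1.55. No direction can be given for Myh10.

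Smooth muscle forms were not called here, though the study lists MYL9 among its significantly modulated genes, at the same ratio of 1.18. The equine probe of the smooth muscle regulatory light chain MYL9 had a mean of 0.24 ± 0.32 (limma adjusted p = 0.175), highest in horses 12 and 44 (0.70 and 0.66), and Lmod1, the leiomodin of smooth muscle, one of -0.12 ± 0.27 (n = 6). Among 5 tested mouse probes for vascular smooth muscle and pericytes, 1 was called lower: Cnn1, which encodes calponin 1, lay between -0.50 and -0.27 in the 7 horses (mean -0.38 ± 0.07, limma adjusted p = 0.0222). Cnn1 was also the only one called among the 24 tested mouse probes of sarcomere-associated genes outside the symbol rule, whose median was -0.01. The part of vessels in the smooth muscle ratios was not tested.

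Myh13, the superfast heavy chain of extraocular and laryngeal muscle, lay below the pool in 7 of 7 horses (mean -0.38 ± 0.19, limma adjusted p = 0.056), short of the threshold. Only 11 microarrays gave a value for it, 4 of them with PSSM muscle in Cy5. On the Cy3 microarrays of horses 12 and 44 its values (-0.30 and -0.82) equal those of Tnni2. In Cy3, Tpm1 and Myl7 also share a value in horse 44 (-0.56), as do Lmod1 and the Pdlim5 probe at base 1191 in horse 12 (-0.65). Signals of the PSSM muscle at a lowest level were not screened for in any probe. Given the likeness of the heavy chain genes, the horse transcript that binds the Myh13 probe is uncertain. Myh15 and Tnni3k, the other 2 probes outside the lists of forms, had means of -0.10 ± 0.29 and 0.10 ± 0.36 (n = 6).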

How the data were processed

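RNA from gluteus medius biopsies was amplified, labelled and hybridized by the authors, who quantified the microarrays with GenePix Pro, normalized them by Lowess in GeneSpring and deposited natural log (ln) ratios of Cy5 over Cy3, which end at ratios of 0.01 and 100. The rule behind empty cells and the background correction are not given in the sources used here. Values with PSSM muscle in Cy3 were turned by the dyes of the labels. All were put on the log2 scale, and the 2 microarrays of each horse were averaged. Where only 1 of them had a value, it stood for the horse. Equine probes were named from the study's list (384 of 384 matched) and mouse probes from the platform annotation (13430 of 24109 with a symbol), which can be old. Probes with at least 5 horses were tested with limma 3.58.1 (lmFit, eBayes) under R 4.3.3, after a run on simulated data. Exact sign-flip tests, tables and figures used Python 3.11.15, numpy 2.4.6, pandas 2.3.3 and matplotlib 3.10.9; statmod 1.5.0 served the block model. The lowest signal of the pool was recognized by a ratio that is whole within 0.0002 once multiplied by 10. The number of microarrays limits the precision.

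Named probes are all equine members with the mouse probes of the same genes, all called members, the 2 largest means of each list of forms, and genes with several tested probes; others were named after their values were seen. The members and the lists of forms and markers were chosen with earlier results of these data known. Alternatives were the methods' t-test, a dye term with the horse as a random block, each dye alone, median centring, values on all 14 microarrays, at least 2 horses, joint adjustment, no values at the pool's lowest signal, each horse left out, list medians over the mean of each gene's probes and, chosen after seeing the data, no Cy5 microarray of horse 54, which stands apart.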

Additional observations from a re-analysis of the deposited data

Results flagged for a closer look

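In each tested member, the gap between the most extreme horse and the next was set against the range of the horses (Dixon's critical value). This marked 6 of 61 probes, and chance marks about 1 group in 20. Horse 38 stood apart below the others in Myh7 (-1.79, the others from -0.25 to 0.87) and in Tnnt1 (-2.55, the others from -0.50 to 0.63). Horse 12 stood apart above the others in the equine ACTA2 probe (1.01, the others from -0.79 to -0.03). Horse 54 was lowest in mouse Tnni3 (-1.15, the others from -0.11 to 0.29). Horse 42 was lowest in mouse Actn2 (-0.61, the others from -0.06 to 0.35). Horse 32 was lowest in the Neb probe at base 2270 (-0.90, the others from -0.14 to 0.23). The values of Tnnt1 in horse 38, Tnni3 in horse 54 and this Neb probe in horse 32 each come from the Cy3 microarray only.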

How the results depend on the processing

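Among the mouse members, 2 were called higher and 3 lower. The count called higher was 0 with the methods' t-test, 8 with PSSM muscle in Cy3 only, and 1 with values on all 14 microarrays, with at least 2 horses, or without values at the pool's lowest signal; with 1 horse left out it was 1 or 2. The count called lower was 7 with a dye term plus the horse as random block, 11 in Cy3 only and 6 in Cy5 only, with all 3 of the lower calls shared in each; with 1 horse left out it was 3 or 4. Of the equine members, 0 were called higher and 1 lower. The count higher was 2 in Cy3 only and 1 (ACTN2) after centring, with values on all 14 microarrays, and without the Cy5 microarray of horse 54; the count lower was 0 with the methods' t-test, the block, Cy3 only, centring, joint adjustment and without the Cy5 microarray of horse 54, and 0 or 1 with 1 horse left out. The cause was not tested. Called with the opposite sign were equine TNNI3 in Cy3 only (0.59) and mouse Actn2 in Cy5 only (-0.52). Medians of the lists moved by less than their spread between horses in every setting. No paired analysis was possible because the only control is 1 pool; the replicate numbers mark the 2 microarrays of a horse. Precision is limited further in the mouse members with few values.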
